A study of Mus musculus with 6 samples.

Results

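Astrocytes shape synapses with secreted proteins and with receptors that clear synaptic material, and 10 such genes were read on 6 arrays of sorted cells from the neonatal mouse cerebellum. Thbs1, Thbs2 and Thbs4 encode thrombospondins, Sparcl1 encodes hevin and Sparc its relative SPARC, Gpc4 and Gpc6 encode glypicans, Chrdl1 encodes chordin-like 1, and Megf10 and Mertk encode engulfment receptors. The genes were chosen by name, and all 14 of their probes were used, of 55681 probes for 34836 gene names on the array. For 7 genes there was 1 probe, and for 3 genes there were more.

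The samples came from wild-type CD1 mice of postnatal days 1 to 3 by the labels. The methods give an earlier age for the arrays and another background for wild-type mice, with CD1 named only for graft hosts. Pooled cerebella of either sex were sorted with magnetic beads to 50000 cells per sample. A+/G+ cells (n = 3) were taken in 1 step with beads against ACSA-2, an astrocyte surface antigen on the ATP1B2 protein. A-/G+ cells (n = 3) were depleted with beads against ACSA-2, L1CAM, PSA-NCAM, CD45 and Ter119 and then selected for GLAST, the glutamate transporter encoded by Slc1a3, for which A+/G+ cells had no selection step. CD45 marks white blood cells and microglia, Ter119 marks red cells, and only the A-/G+ protocol had a depletion step against them.

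Thrombospondins from immature astrocytes induce structurally complete but silent excitatory synapses through the calcium channel subunit α2δ-1. Hevin promotes the formation of excitatory synapses, and SPARC opposes it. Glypicans 4 and 6 recruit AMPA receptors to young synapses, and chordin-like 1, which is related to antagonists of bone morphogenetic proteins, drives the later switch to receptors with the subunit GluA2. MEGF10 and MERTK bind material that displays phosphatidylserine, directly or through bridging proteins, and let astrocytes engulf synapses.

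Among the 10 genes, Thbs2 alone passed the test between the fractions, and it was higher in A-/G+. Signals are the scanner's intensities on the log2 scale after quantile normalization, and a gene's value is that of its brightest probe. A gene passed when its limma p-value, adjusted over all probes by the Benjamini-Hochberg method, was at most 0.05, and it was called when the medians were also at least 4-fold apart. In A+/G+, 0 of 10 genes passed as higher, against 5.63% of all gene names. In A-/G+, 1 of 10 passed as higher, against 4.82%, and 10.5% of all gene names passed in either direction. At an unadjusted limma p under 0.05, 3 genes were higher in A+/G+ and 2 favored A-/G+, and the methods' t-test gave the same counts. These shares were 12.6% and 13.4% of all gene names by limma. None of the 10 was called, whereas 1.93% of gene names were called toward A+/G+ and 0.425% toward A-/G+.

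The arrays of the fractions did not overlap for Thbs4, Sparc, Gpc6 and Mertk, the 4 genes with A+/G+ on top, and for Thbs2 and Megf10, the 2 genes with A-/G+ on top. Over all gene names, 14.9% lay without overlap toward A+/G+ and 24% toward A-/G+. The means of 7 genes leaned toward A+/G+ and those of 3 toward A-/G+. Subtracting A-/G+ from A+/G+, the median log2 difference of the 10 genes was 0.38, compared with -0.046 over all gene names. With 3 arrays against 3, an exact permutation test cannot go below p = 0.1 (two-sided).

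**Figure D1:**
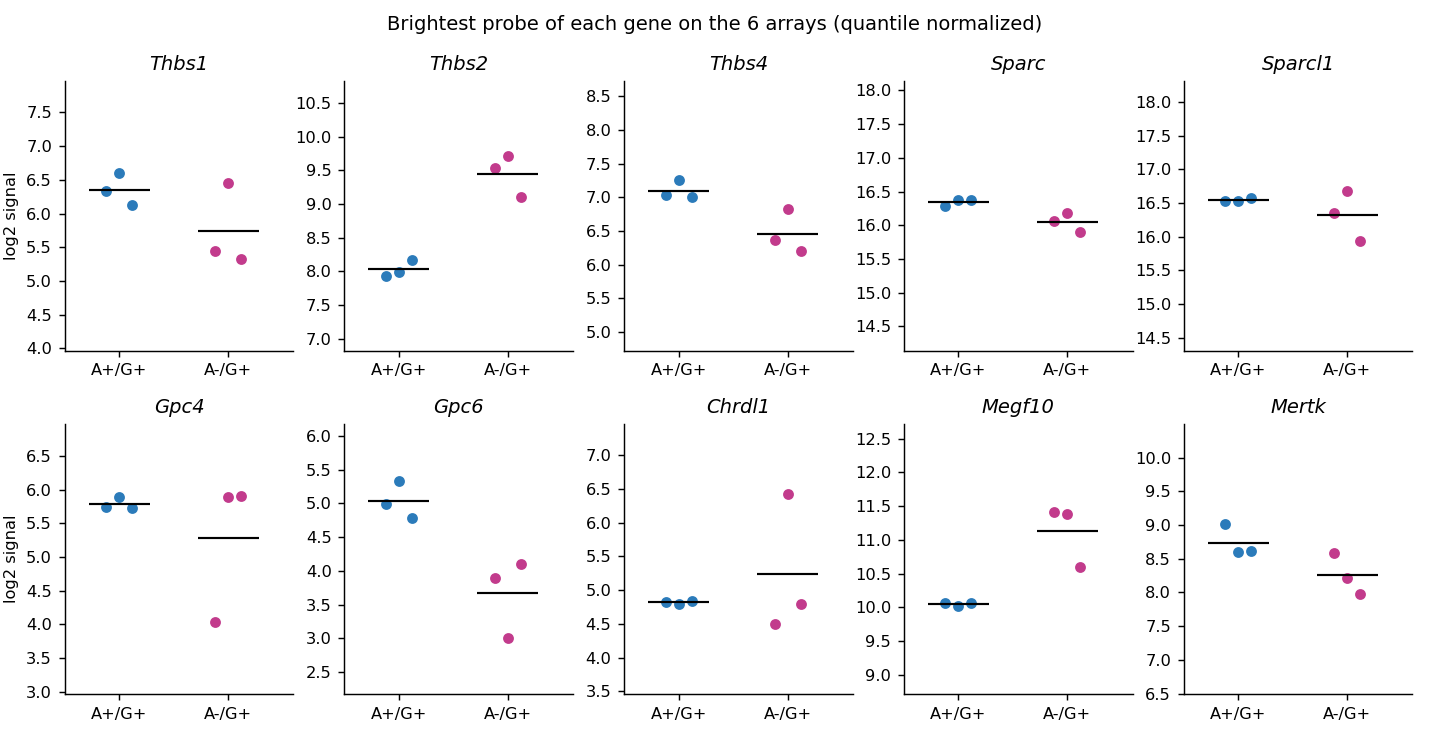
Normalized log2 signal (vertical axis) of the brightest probe of each of the 10 genes on the 3 A+/G+ arrays (blue) and the 3 A-/G+ arrays (magenta), in replicate order from left to right, with the mean as a bar. Thbs2 and Megf10 sit higher on all A-/G+ arrays, and the A-/G+ arrays are more widely spread for all 10 genes.

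The A-/G+ arrays were dimmer and less alike, which limits what they can show for weak probes. Before normalization, the 75th percentile of the intensity was 332 to 334 on the A+/G+ arrays and 56.6, 113 and 251 on the A-/G+ arrays. Between 26476 and 26655 probes were well above background on the A+/G+ arrays and between 18340 and 24730 on the A-/G+ arrays. The SD between arrays was larger in A-/G+ for 10 of 10 genes, with a median of 0.42 against 0.11 in A+/G+, and it was larger for 79.3% of all gene names. Slide 1 held the A+/G+ arrays and slide 2 the A-/G+ arrays, and the effects of slide and fraction cannot be told apart. Atp1b2 was higher in A+/G+ by 2.16 (limma, adjusted p = 0.00725), and Slc1a3 had 13.39 ± 0.19 in A+/G+ and 14.59 ± 0.51 in A-/G+ (SD, n = 3 each; limma, adjusted p = 0.0733). All 12 astroglial markers were well above background on all arrays. In bulk samples, fewer cells of a type and less RNA per cell cannot be told apart.

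The probes themselves matter here, because 3 of the genes were read by probes that differed. The first 30 bases of each 60-base probe are shown, except for the second Sparc probe, where the 30 bases surround a polyadenylation signal AATAAA, set in capitals. Coordinates are those of the array annotation on mm9, all on the minus strand, and probes of 1 gene are numbered from the brightest. The Thbs2 probe is shown because it carried the only gene that passed, and its 60 bases spread over 1264 bases of the genome (chr17:14804526-14805789), so it crosses a gap between exons. The Sparc probes lie at chr11:55208939-55208998 and chr11:55208003-55208061, starting at bases 1303 and 2240 of the transcript. The Gpc4 probes lie at chrX:49406560-49406619 and chrX:49406100-49406159. The Chrdl1 probes lie at chrX:139732534-139732593, chrX:139720248-139720307 and chrX:139725644-139725703, where the first was designed on another transcript than the others.
Thbs2: ctgtttgtcttctcccaagagatggtctat
Sparc probe 1: ggctgttccgcctggggataaggtgctaac
Sparc probe 2: caagtctttcaaAATAAAaagtaacaactt
Gpc4 probe 1: tcctagtgactttgctttttaaatgaatgg
Gpc4 probe 2: tgccttattgggagagaagtggagttgact
Chrdl1 probe 1: aaattcaggtggaagcatgcttattagggg
Chrdl1 probe 2: cacaggacatgtacccaaatatggtactta
Chrdl1 probe 3: agaagatttccaagaggatgtttggggagc

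Both strands of the 60-base probes were searched for AATAAA and for its common variant ATTAAA. In the probe's own direction, AATAAA was in 2 of the 14 probes and in 10.1% of all probes, and on the other strand in 0 of 14 and 3.74%. ATTAAA was in 0 of 14 on either strand, compared with 3.95% and 2.53% of all probes. A match is a description of the probe and not evidence of a used site.

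Of the thrombospondin genes, Thbs2 was higher in A-/G+, and Thbs1 and Thbs4 did not pass. Thbs2, one of the trimeric thrombospondins secreted by immature astrocytes, had normalized log2 signals of 7.93, 7.99 and 8.17 on the A+/G+ arrays and of 9.53, 9.72 and 9.11 on the A-/G+ arrays. The lowest A-/G+ value exceeded the highest A+/G+ value by 0.94, and the probe was well above background on all 6. The means were 8.03 ± 0.12 and 9.45 ± 0.32 (SD, n = 3 each), so that A-/G+ was higher by 1.42 (standard error 0.181, 95% interval 0.95 to 1.89; limma, adjusted p = 0.0170). The medians were 2.90-fold apart, below the 4-fold limit, and the exact permutation p was 0.1 (two-sided, n = 3 each), the smallest possible. The difference kept its direction in 14 of 14 alternatives, with a size of 1.21 to 1.59 and limma adjusted p-values of 0.00427 to 0.103. The adjusted p rose above 0.05 without replicate 1 (0.0726), 2 (0.0803) or 3 (0.0687) of A+/G+ and without replicate 1 of A-/G+ (0.0503; limma), with sizes of 1.37, 1.40, 1.49 and 1.38.

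Thbs4, a pentameric thrombospondin read at chr13:93521565-93521624 (minus strand), had log2 signals of 7.04, 7.25 and 7.01 in A+/G+ and of 6.36, 6.83 and 6.20 in A-/G+. The fractions did not overlap, but the gap was only 0.18, set by A-/G+ replicate 2. A+/G+ was higher by 0.64 (standard error 0.189, 95% interval 0.15 to 1.12; limma, adjusted p = 0.119), which did not pass. Without A-/G+ replicate 2 the difference was 0.82 and the limma adjusted p was 0.0428.

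Thbs1, the other trimeric thrombospondin of immature astrocytes, was read at chr2:117952585-117952644 (plus strand), with log2 signals of 6.34, 6.60 and 6.12 in A+/G+ and of 5.44, 6.45 and 5.33 in A-/G+. A-/G+ replicate 2 lay among the A+/G+ arrays and the other A-/G+ arrays lay below them. The difference of 0.61 had a 95% interval of -0.28 to 1.50 (limma, adjusted p = 0.392), and 2 of 3 A-/G+ arrays had the probe well above background. The interval includes 0 and differences of either sign.

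Of 8 fixed family members and receptors of the thrombospondins, 3 passed as higher in A+/G+ and 0 toward A-/G+. The means of all 8 leaned toward A+/G+, and the list median was 0.66. Beside this and the following lists, the shares of all gene names that passed were 5.63% toward A+/G+ and 4.82% toward A-/G+, and the median of all gene names was -0.046. Lrp1, a large endocytic receptor that also binds thrombospondin, had 12.31 ± 0.08 in A+/G+ and 11.45 ± 0.03 in A-/G+ (SD, n = 3 each), a difference of 0.86 (limma, adjusted p = 0.00585), although only 1 of its 3 probes passed. Comp, the cartilage thrombospondin, favored A+/G+ at least 1.05-fold (limma, adjusted p = 0.0341) and was well above background on no A-/G+ array. Cd36, a scavenger receptor for thrombospondin, passed as well (limma, adjusted p = 0.0113), but its A-/G+ signals were not well above background and no fold is given. Such bounds compare the A+/G+ mean with a floor for each A-/G+ array. The floor is the lowest signal of any probe well above background there, or the probe's own signal if that was higher. It is not a detection limit for every probe. Sparc probe 2 read 5.72 on A-/G+ replicate 1 without being well above background. Cacna2d1, which encodes α2δ-1, had 7.83 ± 0.27 in A+/G+ and 6.77 ± 1.11 in A-/G+ (SD, n = 3 each; limma, adjusted p = 0.390).

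**Figure D2:**
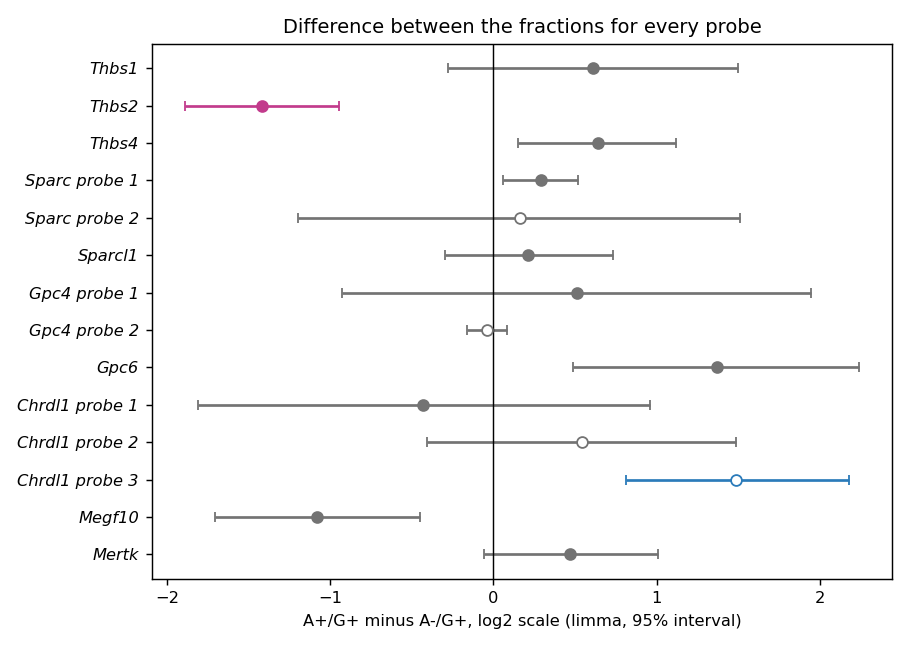
Log2 difference of the means (horizontal axis, A-/G+ subtracted from A+/G+) for each of the 14 probes, with the 95% interval from limma. Filled points are the brightest probe of a gene, open points are its other probes, and colour marks the probes with an adjusted p of at most 0.05, Thbs2 and Chrdl1 probe 3. Chrdl1 probe 3 was well above background on 1 of 6 arrays.

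Neither Sparc nor Sparcl1 passed. Sparc, a collagen-binding matricellular protein, had log2 signals of 16.28, 16.37 and 16.38 in A+/G+ and of 16.07, 16.18 and 15.90 in A-/G+ by its probe 1. The fractions did not overlap, with a gap of 0.09. A+/G+ was higher by 0.29 (standard error 0.0903, 95% interval 0.06 to 0.52, means 1.22-fold apart; limma, adjusted p = 0.134), which did not pass.

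Sparcl1, read at chr5:104508149-104508208 (minus strand), had log2 signals of 16.53, 16.53 and 16.58 in A+/G+ and of 16.36, 16.68 and 15.94 in A-/G+. A-/G+ replicate 2 was the highest and replicate 3 the lowest of all 6 arrays. The difference of 0.21 had a 95% interval of -0.30 to 0.73 (limma, adjusted p = 0.566). When quantile normalization was replaced by a shift of each array to its 75th percentile, the signs of both genes turned, to -0.30 for Sparc and -0.48 for Sparcl1. That shift moved the median of all probes to -1.02, so both remained above the median probe.

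Sparc probe 2, which lies further along the transcript and holds the AATAAA shown above, gave far less information. It read 5.24, 4.31 and 5.06 in A+/G+ and 5.72, 4.10 and 4.32 in A-/G+ on the log2 scale, and 3 A+/G+ arrays but 0 A-/G+ arrays held it well above background. The limma adjusted p was 0.876.

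Vascular and meningeal cells also make SPARC and hevin, and markers of those cells moved between the fractions. The summed linear signal of 9 meningeal markers was 83400 to 101000 in A+/G+ and 13800 to 42200 in A-/G+, and 4 of 9 passed as higher in A+/G+. For 9 pericyte and smooth muscle markers it was 13800 to 16300 and 2040 to 3020, with 5 of 9 passing, and for 10 endothelial markers 12800 to 18900 and 3200 to 13300, with 1 of 10 passing. All these passed genes were higher in A+/G+. Their part in the Sparc, Sparcl1 and thrombospondin signals was not tested.

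Of 9 relatives of SPARC and partners of hevin, 1 passed as higher in A+/G+ and 0 toward A-/G+, and the list median was 0.76. Smoc1, a SPARC-related modular protein, was higher in A+/G+ by 1.63 (limma, adjusted p = 0.0214, and up to 0.0953 with 1 array left out). The neuroligins, postsynaptic adhesion molecules, did not pass. Nlgn1 had 6.48 ± 0.17 and 4.70 ± 1.02, and Nlgn2 had 12.68 ± 0.05 and 12.95 ± 0.08, in A+/G+ and A-/G+ respectively (SD, n = 3 each; limma, adjusted p = 0.124 and 0.0719).

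Neither Gpc4 nor Gpc6 passed. Gpc6, read at chr14:118375311-118375370 (plus strand), had log2 signals of 4.99, 5.34 and 4.78 in A+/G+ and of 3.90, 3.01 and 4.10 in A-/G+. The fractions did not overlap, with a gap of 0.68, but the probe rose well above background only in A+/G+, on 3 of 3 arrays, against 0 of 3 in A-/G+. The means were 5.04 ± 0.28 and 3.67 ± 0.58 (SD, n = 3 each), and the difference did not pass (limma, adjusted p = 0.0782), so no fold is given.

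Gpc4 had log2 signals of 5.74, 5.89 and 5.73 in A+/G+ and of 4.04, 5.89 and 5.90 in A-/G+ by its probe 1. A-/G+ replicate 1, the dimmest array, was low and not well above background, and the other A-/G+ arrays were at or above the A+/G+ level. The mean was higher in A+/G+ by 0.51 (95% interval -0.93 to 1.95; limma, adjusted p = 0.614), whereas the median was 1.11-fold higher in A-/G+. Without A-/G+ replicate 1 the sign of the difference turned to -0.11. Gpc4 probe 2 read 2.06 to 2.13 on all 6 arrays and was well above background on none.

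Of 10 measured glypican relatives and partners, 2 passed as higher in A+/G+ and 0 toward A-/G+, and the list median was 0.22. Gpc5, another glypican, read 6.10, 5.53 and 5.93 in A+/G+ and 3.73, 2.42 and 2.25 in A-/G+ on the log2 scale. The difference was at least 1.98-fold (limma, adjusted p = 0.0231, and up to 0.0997 with 1 array left out), both of its probes passed, and it was well above background on no A-/G+ array. Gpc3 was higher in A+/G+ by 0.91 (limma, adjusted p = 0.0232, and up to 0.0902 with 1 array left out), by 1 of its 2 probes. Gpc1, a further glypican, had 13.49 ± 0.19 in A+/G+ and 13.69 ± 0.22 in A-/G+ (SD, n = 3 each; limma, adjusted p = 0.529).

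The 3 probes of Chrdl1 differed in the direction of the mean or in passing, while their medians all leaned toward A+/G+. Probe 1 read 4.82, 4.79 and 4.84 in A+/G+ and 4.50, 6.42 and 4.79 in A-/G+ on the log2 scale. A-/G+ replicate 2 stood alone at the top, and the other 5 arrays lay between 4.50 and 4.84. The mean was higher in A-/G+ by 0.43 (95% interval -0.96 to 1.81; limma, adjusted p = 0.651), while the median was 1.02-fold higher in A+/G+. Without A-/G+ replicate 2, A+/G+ was higher by 0.16.

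Chrdl1 probe 2 read 4.03, 4.55 and 4.31 in A+/G+ and 3.70, 4.43 and 3.13 in A-/G+, a difference of 0.54 toward A+/G+ (limma, adjusted p = 0.479), and was well above background on no A-/G+ array. Chrdl1 probe 3 read 3.44, 4.05 and 3.78 in A+/G+ and 2.03, 2.03 and 2.72 in A-/G+. It did not overlap and passed (limma, adjusted p = 0.0360), but 1 A+/G+ array and 0 A-/G+ arrays held it well above background, so no fold is given, and it lost the limit in 10 of 13 alternatives. Counted by probe, 1 of the 14 probes thus passed toward A+/G+ and 1 toward A-/G+, against 4.65% and 4.64% of all probes. None of the 14 was called, against 1.53% and 0.399%.

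Of 6 chordin relatives, antagonists and bone morphogenetic proteins, 1 passed as higher in A+/G+ and 0 toward A-/G+, and the list median was 0.52. Chrdl2, the nearest relative by name, read 4.63, 5.05 and 4.63 in A+/G+ and 2.13, 2.19 and 3.02 in A-/G+ on the log2 scale (limma, adjusted p = 0.0164). It was well above background on no A-/G+ array, and no fold is given. Bmp7, a bone morphogenetic protein ligand, had 12.08 ± 0.03 and 11.04 ± 0.45 in A+/G+ and A-/G+ (SD, n = 3 each; limma, adjusted p = 0.0647).

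Among 9 other factors that act on synapses, 2 passed as higher in A+/G+ and 1 toward A-/G+, and the list median was 0.93. Wnt7a, a secreted ligand known in the cerebellum for remodeling mossy fiber terminals, read 9.22, 9.07 and 9.25 in A+/G+ and 6.26, 7.42 and 6.69 in A-/G+ on the log2 scale. The A+/G+ mean was higher by 2.39 (5.23-fold; limma, adjusted p = 0.0180, and up to 0.0843 with 1 array left out). Bdnf, which encodes a neurotrophin, favored A+/G+ at least 1.17-fold (limma, adjusted p = 0.0261) and was well above background on no A-/G+ array. Tgfb3, a transforming growth factor, read 8.14, 8.38 and 8.11 in A+/G+ and 9.15, 9.31 and 8.83 in A-/G+, a difference of 0.88 toward A-/G+ (limma, adjusted p = 0.0342, and up to 0.131 with 1 array left out).

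Neither engulfment receptor passed. Megf10, the mammalian relative of the fly receptor Draper, had log2 signals of 10.06, 10.02 and 10.06 in A+/G+ and of 11.41, 11.38 and 10.59 in A-/G+. The A+/G+ arrays were nearly identical and every A-/G+ array was above them by at least 0.53, with replicate 3 the lowest of its fraction. A-/G+ was higher by 1.08 (standard error 0.245, 95% interval 0.45 to 1.71; limma, adjusted p = 0.0643), with means 2.11-fold and medians 2.50-fold apart. The side of the limit depended on the setting, since the limma adjusted p was within it in 5 of 14 alternatives, among them the fit without A-/G+ replicate 3 (difference 1.34, adjusted p = 0.0042). The range over the 14 alternatives was 0.0042 to 0.200, and the size was 0.94 to 1.34.

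Mertk, which engulfs through the bridging ligands GAS6 and protein S and was read at chr2:128627867-128627926 (plus strand), had log2 signals of 9.01, 8.60 and 8.61 in A+/G+ and of 8.59, 8.21 and 7.98 in A-/G+. The fractions touched without overlapping, at 8.60 and 8.59. The means were 8.74 ± 0.23 and 8.26 ± 0.31 (SD, n = 3 each), a difference of 0.47 toward A+/G+ with a 95% interval of -0.06 to 1.01 (limma, adjusted p = 0.265). It stayed above the limit in 14 of 14 alternatives, at sizes of 0.33 to 0.64. The difference between the Megf10 and Mertk differences was not tested.

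Markers of Bergmann glia, the radial astroglia of the cerebellar cortex, moved in the direction of Thbs2 and Megf10. Of 8 such markers, 7 passed toward A-/G+ and 0 toward A+/G+, and their summed linear signal was 22800 to 25900 in A+/G+ and 28800 to 39400 in A-/G+. The paper reports Gdf10, Gria1 and Wif1 among them as A-/G+ genes from these same arrays, so their direction was known beforehand. Ptprz1, the brightest of the 8, leaned toward A+/G+ by 0.68 and did not pass (limma, adjusted p = 0.173). Microglia also express Mertk. The summed linear signal of 14 microglia and macrophage markers was 1730 to 2740 in A+/G+ and 2150 to 4680 in A-/G+, with 1 (Tmem119) passing as higher in A+/G+. Throughout A+/G+, 7 of the 14 stood well above background, and throughout A-/G+, 5 did. The means of 7 of these markers leaned toward A+/G+ and those of 7 toward A-/G+, with a list median of 0.04. Toward A-/G+, Csf1r, a receptor of microglia and macrophages, had 7.60 ± 1.33 in A+/G+ and 8.54 ± 0.24 in A-/G+. Cd68, a lysosomal protein of these cells, had 8.06 ± 0.27 and 9.11 ± 0.38 (SD, n = 3 each; limma, adjusted p = 0.515 and 0.0678). Toward A+/G+, the marker Aif1 had 5.48 ± 0.61 and 3.96 ± 1.81 (SD, n = 3 each; limma, adjusted p = 0.463). Ptprc, which encodes CD45, was well above background on no array of either fraction. The part of these cell types in the Thbs2, Megf10 and Mertk signals was not tested.

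**Figure D3:**
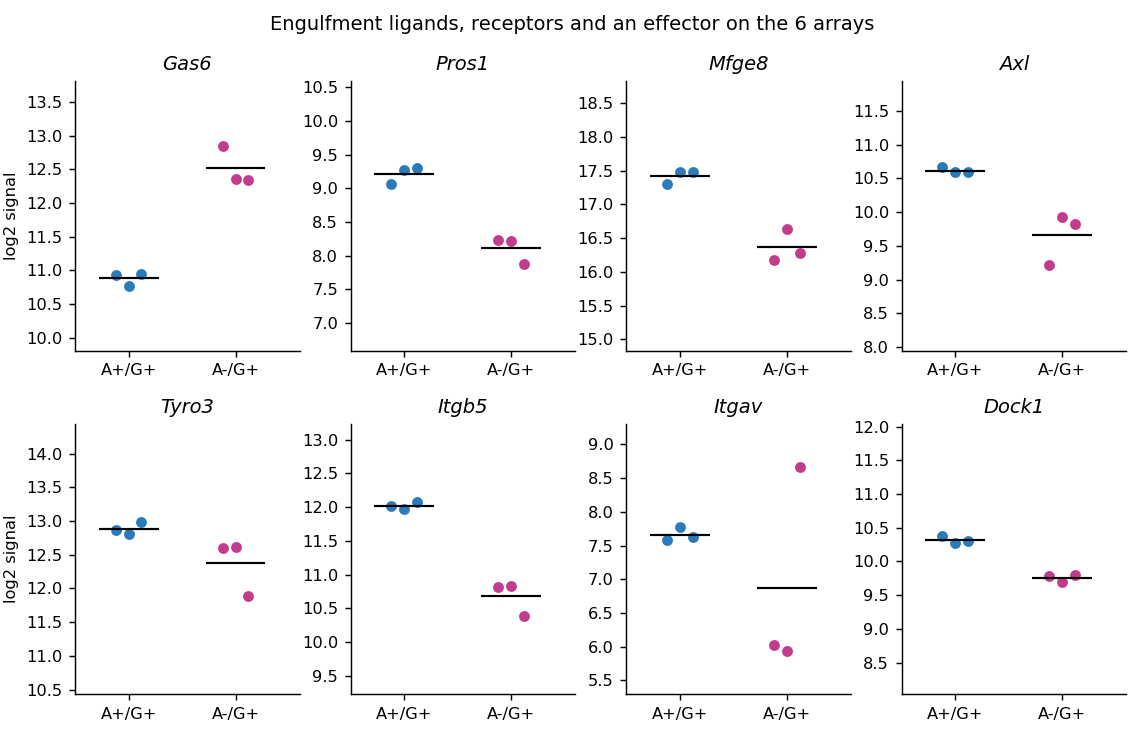
Normalized log2 signal (vertical axis) of 8 genes of the MERTK pathway on the 3 A+/G+ arrays (blue) and the 3 A-/G+ arrays (magenta), with the mean as a bar. Gas6 is higher on every A-/G+ array, whereas Pros1, Mfge8, Axl, Tyro3, Itgb5 and Dock1 are higher on every A+/G+ array. Of these, Axl and Tyro3 did not pass.

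Among the ligands that bridge phagocytic receptors to phosphatidylserine, Gas6 passed toward A-/G+ and Pros1 and Mfge8 toward A+/G+. Gas6, a ligand of MERTK, AXL and TYRO3, read 10.93, 10.77 and 10.95 in A+/G+ and 12.85, 12.36 and 12.34 in A-/G+ on the log2 scale. All A-/G+ values exceeded all A+/G+ values, and the A-/G+ mean was higher by 1.63 (3.11-fold, standard error 0.163; limma, adjusted p = 0.0102). Pros1, which encodes protein S, the other bridging ligand of MERTK, read 9.07, 9.27 and 9.30 in A+/G+ and 8.23, 8.22 and 7.88 in A-/G+. It was higher in A+/G+ by 1.10 (2.15-fold, standard error 0.131; limma, adjusted p = 0.0146), the opposite direction to Gas6. The limma adjusted p of both rose above 0.05 without replicate 2 or 3 of A+/G+, to at most 0.0543 for Gas6 and 0.0724 for Pros1.

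Mfge8, which bridges phosphatidylserine to the integrins αvβ3 and αvβ5, had 17.43 ± 0.10 in A+/G+ and 16.36 ± 0.24 in A-/G+ (SD, n = 3 each), a difference of 1.06 (limma, adjusted p = 0.0187). Under the 75th percentile shift its limma adjusted p was 0.348, the highest over its alternatives. Itgb5, the β5 chain, read 12.01, 11.98 and 12.07 in A+/G+ and 10.82, 10.83 and 10.39 in A-/G+, a difference of 1.34 toward A+/G+ (2.54-fold; limma, adjusted p = 0.0114, and up to 0.0614 with 1 array left out). The brightest probe of its partner chain Itgav was scattered in A-/G+, at 6.03, 5.94 and 8.66, around the A+/G+ values of 7.59, 7.77 and 7.63 (limma, adjusted p = 0.593). The other of the 2 Itgav probes passed toward A+/G+. The sister receptors did not pass. Axl had a difference of 0.96 and Tyro3 one of 0.52, both toward A+/G+ (limma, adjusted p = 0.0549 and 0.269).

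Of all 16 genes of the MERTK pathway and engulfment machinery, 5 passed as higher in A+/G+ (Itgb5, Pros1, Mfge8, Xkr8 and Dock1) and 1 toward A-/G+ (Gas6), and the list median was 0.57. Of 13 relatives and opsonins of MEGF10, 3 passed as higher in A+/G+ and 0 toward A-/G+, and the list median was -0.08. Pear1, a receptor of the MEGF family, was higher in A+/G+ by 2.67 (limma, adjusted p = 0.0497, and up to 0.172 with 1 array left out), by 1 of its 2 probes. Pear1 lost the limit in 8 of 15 alternatives, among them the authors' table and outlier spots kept. Scarf2, a scavenger receptor, was higher by 1.47 and Abca1, a lipid transporter, by 1.43 (limma, adjusted p = 0.0266 and 0.0352, and up to 0.111 and 0.132 with 1 array left out). Gulp1, the adaptor of MEGF10, had a difference of 0.70 (limma, adjusted p = 0.0549). C1qa, C1qb and C1qc, which encode the complement component that MEGF10 binds on its targets, rose well above background on at most 2 of the A+/G+ arrays and 1 of the A-/G+ arrays, and their means differed by 0.15 to 0.77 (limma, adjusted p = 0.957, 0.421 and 0.725).

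**Figure D4:**
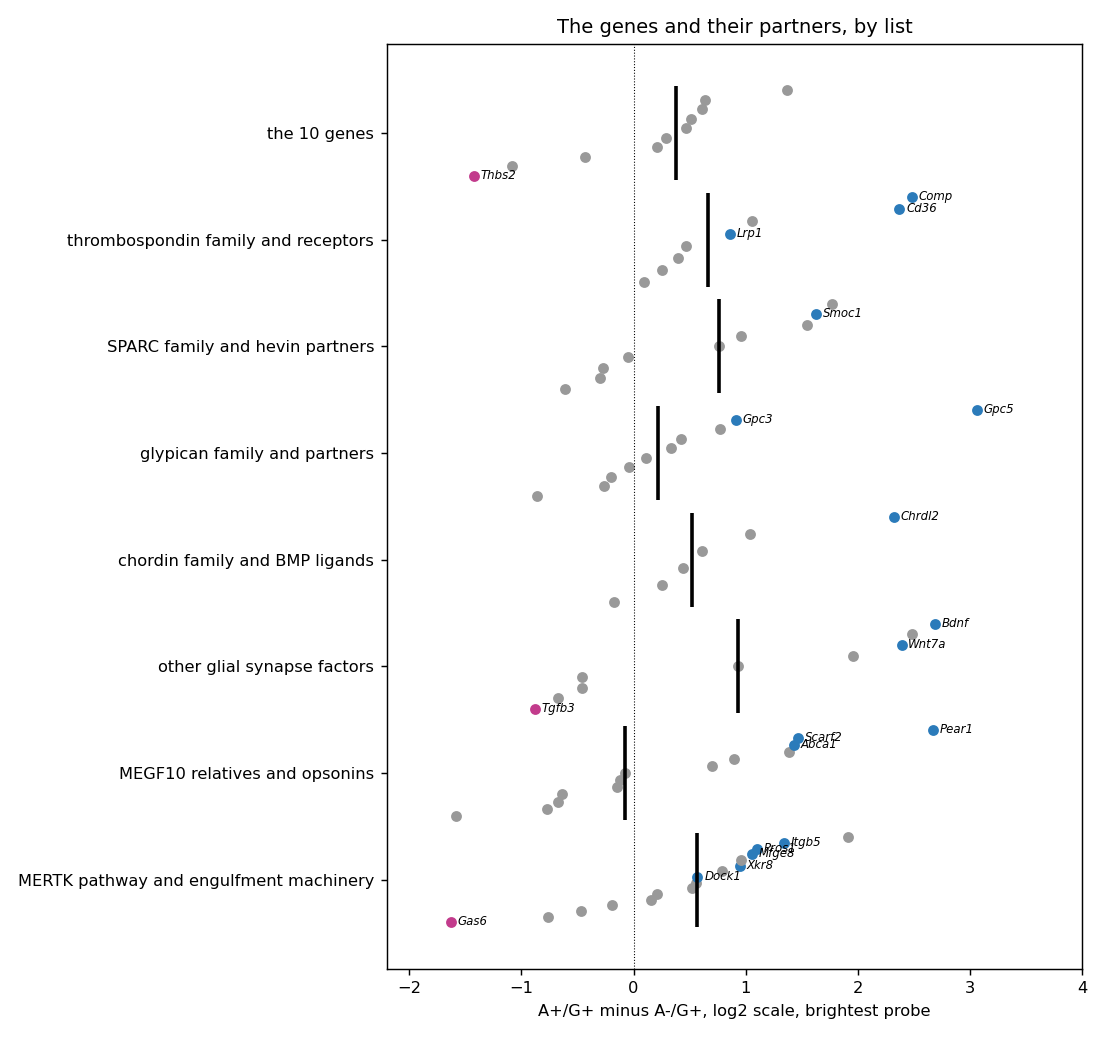
Log2 difference of the means (horizontal axis, A-/G+ subtracted from A+/G+) for the 10 genes and for the 71 measured genes of 7 lists of their relatives and partners (rows), by the brightest probe. Black lines are list medians, coloured and named points have an adjusted p of at most 0.05 from limma, and Comp, Cd36, Gpc5, Chrdl2 and Bdnf were well above background on no A-/G+ array.

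Over the 7 lists, 71 of 72 genes were found by name on the array. Of these, 17 passed as higher in A+/G+ (23.9%) and 2 as higher in A-/G+ (2.82%), and 52 did not pass, beside 5.63% and 4.82% of all gene names. The lists were chosen with earlier results known, and nothing particular to them is read from these shares. The A+/G+ arrays measured more probes above background, and 5 of the 17 genes were well above background on no A-/G+ array. With each array left out in turn, 2 of the 19 passed genes (Cd36 and Lrp1) kept a limma adjusted p of at most 0.05 throughout, and 17 lost it without at least 1 array. Both lost it in other alternatives. Cd36, 1 of the 5 genes without A-/G+ signal above background, had a limma adjusted p of 0.0862 under the 75th percentile shift. Lrp1 gave 0.29 (limma, adjusted p = 0.561) as the mean of its probes. None of the 19 turned direction in any alternative.

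**Figure D5:**
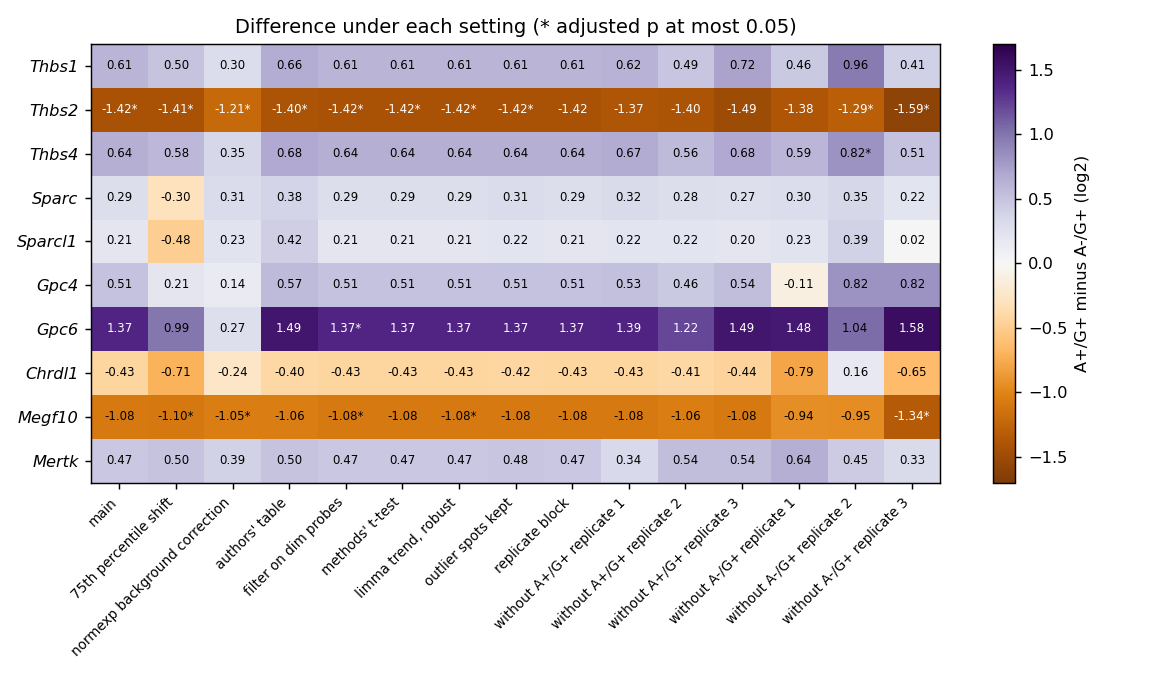
Log2 difference of the means (A-/G+ subtracted from A+/G+) for the brightest probe of each gene (rows) as reported (leftmost column) and under 14 alternatives (other columns), printed and coloured. Stars mark an adjusted p of at most 0.05, which Thbs2 had as reported and in 9 of 14 alternatives and Megf10 in 5 of 14.

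Under the alternatives, the 10 genes gave 143 values by the brightest probe or the mean of a gene's probes, and 126 of these kept the direction and the side of the limit. In 5 the limit was lost, all for Thbs2, in 7 it was newly passed, for Megf10, Thbs4 and Gpc6 (the latter in the filter on dim probes, which it entered through A+/G+ alone), and in 5 the direction turned, for Sparc, Sparcl1, Gpc4 and Chrdl1.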

How the data were processed

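RNA of 3 A+/G+ and 3 A-/G+ samples was hybridized to 1-color Agilent arrays of 62976 spots. The authors deposited the scanner output with background-corrected spot intensity (Feature Extraction 10.7.3.1, per the file headers) and a log2 table that they had quantile normalized. From the intensities, controls and outlier-marked spots were dropped, log2 values were quantile normalized, spots of a probe were averaged, and all 55681 probes were fitted with limma 3.58.1 in R 4.3.3, with Benjamini-Hochberg adjustment. The methods used Student's test with the same limits of 0.05 and 4-fold medians. Probe names and positions are those of the array annotation (mm9), and the RefSeq table of GRCm38.p6 held all 10 symbols. The fit was tested on simulated data. The genes and lists were chosen with earlier results of these data known, and 1 listed gene is not reported here. Named were all 10 genes and, of each list, up to 3 passed genes with the largest difference in each direction. Axl, Tyro3, Itgav, Cacna2d1, Nlgn1, Nlgn2, Gpc1, Bmp7, Gulp1, Xkr8, Dock1 and the C1q genes were added for their roles after their values were seen. Of the microglia and macrophage markers, Csf1r, Cd68, Aif1 and Ptprc were picked for naming.

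Alternatives were a 75th percentile shift, normexp background correction with offset 50, leaving out dim probes, outlier spots kept, the authors' table, trended robust variance in limma, other size limits, the methods' t-test, the mean of a gene's probes, leaving out 1 array and blocking on the replicate number. Nothing in the labels ties replicates to separate litters, so that p-values measure the spread between these samples. The number of arrays limits the precision.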

Additional observations from a re-analysis of the deposited data

How the results depend on the processing

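The counts moved with the processing. Of all probes, 851 were called toward A+/G+ and 222 toward A-/G+. These counts were 235 and 48 with normexp, 487 and 121 with the methods' t-test, 1797 and 1340 with medians 2-fold apart, 2589 and 2583 with no size limit, and 0 and 0 with the replicate block. The 75th percentile shift gave 777 and 2055, which turns the balance of the directions, and the median of all probes was then -1.02, compared with -0.04. Leaving out 1 array gave 340 to 1458 and 77 to 490.

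Of the 10 genes, 0 passed toward A+/G+ and 1 toward A-/G+. With the filter on dim probes 1 passed as higher in A+/G+ (Gpc6), which supports no difference, because Gpc6 met the filter only through its A+/G+ arrays. As higher in A-/G+, 2 passed with the 75th percentile shift, normexp, the filter on dim probes, and trend and robust variance (Thbs2 and Megf10), and 0 with the replicate block. Leaving out 1 array gave 0 to 1 and 0 to 2. With medians 2-fold apart or no size limit, 1 gene (Thbs2) was called higher in A-/G+.

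Of the 71 listed genes, 17 passed toward A+/G+ and 2 toward A-/G+, but 9 and 1 with the methods' t-test and 0 and 0 with the replicate block. In A-/G+, the 75th percentile shift gave 5 and the mean of a gene's probes 4. Leaving out 1 array gave 2 to 24 and 0 to 4.

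Some differences turned. With the 75th percentile shift, Sparc probe 1 gave -0.30, Sparc probe 2 -0.01 and Sparcl1 -0.48. With normexp, Sparc probe 2 gave -0.01 and Gpc4 probe 2 0.03. With 1 array left out, Sparc probe 2 ranged from -0.15 to 0.66 (-0.03 without A+/G+ replicate 1, -0.15 and -0.04 without A-/G+ replicates 2 and 3). Gpc4 ranged from -0.11 (without A-/G+ replicate 1) to 0.82 and Chrdl1 from -0.79 to 0.16 (without A-/G+ replicate 2), and Chrdl1 gave 0.54 as the mean of its probes. The cause was not tested.

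Equal replicate numbers in the labels were not shown to pair the samples. Deviations from the fraction means correlated by 0.088, 0.056 and 0.006 between samples of the same number, and not every sample correlated best with its own number. With the replicate block, the difference of Thbs2 was unchanged at -1.42 and its limma adjusted p was 0.103. Slide as a block could not be fitted, since each fraction lay on its own slide. Signal over background on the A-/G+ arrays limits Gpc6, Chrdl1 and the second probe of Sparc. The second probe of Gpc4 was well above background on no array of either fraction, and Chrdl1 probe 3 on 1 A+/G+ array alone. Thbs1 and the first probe of Gpc4 were well above background on 2 of the A-/G+ arrays.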

Other observations

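Other cell type markers were read in the same fit. Of 12 astroglial markers, 5 passed toward A+/G+ (Aldoc, Gfap, Gja1, Fgfr3 and Atp1b2) and 1 toward A-/G+ (Aldh1l1). The 12 include Atp1b2 and Slc1a3, which encode the antigens used in the sort, so the pass of Atp1b2 only checks the sort. Of 8 oligodendrocyte lineage markers, 3 passed toward A+/G+ and 1 toward A-/G+. For ciliated cells the counts were 4 and 0 of 6 measured markers, for the granule neuron lineage 0 and 2 of 8, and for Purkinje cells 4 and 1 of 7. None of 8 pan-neuronal, 4 erythroid or 5 choroid plexus markers passed by limma. The part of these cells in the signals of the 10 genes was not tested.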
